A study of Mus musculus with 6 samples.

Results

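The pericyte transporters described here are 5 genes, Atp13a5, Slc6a13, Slc6a20a, Slc6a12 and Slc19a1, taken as a list of named transporters from 23494 genes listed in at least 1 of the 3 deposited UMI tables. All 5 genes were present in each table. UMIs, the molecular tags that count single transcripts, were summed per cluster and library and given as CPM, the count scaled to a common library total. Pericytes are the mural cells that wrap brain capillaries, and they carry a set of solute carriers that differs from that of the neighbouring endothelium. Atp13a5 belongs to the P-type ATPases, in the subfamily that holds polyamine transporters, and is widely used as a marker of brain pericytes. Slc6a13 (GAT2) and Slc6a12 (BGT1) are sodium-dependent transporters of GABA, with taurine or betaine as further substrates, Slc6a20a (SIT1) carries proline and related imino acids, and Slc19a1 is the reduced folate carrier.

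The cells came from the cerebral cortex of adult lineage tracing mice, 3 to 4 months old, in which tamoxifen switched on the tdTomato reporter of the Ai14-flx allele. One line, NG2-Cre-ERT2/Ai14-flx, marks cells in which the NG2 (Cspg4) driver was active at tamoxifen, and NG2 also drives expression in oligodendrocyte precursor cells (OPCs). The other, Tbx18-CreERT2/Ai14-flx, marks cells with an active Tbx18 driver. Each line gave 3 libraries of sorted tdT+/DAPI- live cells, namely naïve (tamoxifen, no injury), physical injury (saline injected into the brain) and ischemic injury (injected ET-1/L-NAME, a vasoconstrictor with a nitric oxide synthase inhibitor). Tamoxifen preceded injury by 7 days and cells were taken 3 days after injury. Every group was 1 library made from pooled tissue of several animals of both sexes, so no comparison below has a replicate check, no test was made, and the 95% intervals cover counting error only.

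The 6 libraries held 17033 cells, with 686 to 4306 cells and a median of 2806 to 9232 UMIs per cell, and pairs of libraries shared at most 5 cell barcodes. The authors clustered the cells in 3 combinations (the NG2 line, the Tbx18 line, and both naïve libraries), and the cluster numbers differ between them. Clusters 0, 1 and 2 of the NG2 line and cluster 2 of the Tbx18 line are called pericytes here. All 11 pericyte marker genes examined were detected in each of these groups of cells. The naïve Tbx18 library went against some cluster names. Its 76 cells in Tbx18-line cluster 3 (microglia) held 20037 CPM of the pericyte markers and 17.7 CPM of the myeloid markers, with C1qb, C1qc, Cx3cr1, Tyrobp and Cd74 at 0, and these cells had a median of 1117.5 UMIs. Its 157 cells in cluster 4 (vascular-genic pericytes) held 16591 CPM of the pericyte markers, against 184 and 73.0 CPM in the physical and ischemic injury libraries. Since the clusters were formed on expression that included these transporters, and the authors named pericytes partly by Atp13a5, levels across clusters are a description.

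In the mouse genome (GRCm38, GENCODE M21) Atp13a5 lies at chr16:29231851-29378732 on the minus strand and Slc6a20a at chr9:123634770-123678885 on the minus strand. Slc6a13 (chr6:121300227-121337733) and Slc6a12 (chr6:121343076-121365775) are neighbours on the plus strand, with 5342 bases and 0 protein-coding genes between them. Slc19a1 spans chr10:77032241-77061002 on the plus strand. Slc6a20a overlaps Ccr9 and Slc19a1 overlaps Col18a1, each on the opposite strand, and Slc6a20a has a close copy, Slc6a20b. On the same strand, Atp13a5 overlaps the processed pseudogene Gm15752 and Slc6a20a overlaps Gm47171. Overlaps and a close copy can make counts less certain, and their effect on the counts of these transporters was not tested.

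The promoters are shown because Atp13a5 and Slc6a20a had much the same pattern across clusters, fibroblasts of the Tbx18 line excepted. The adjacent Slc6a13 and Slc6a12 differed from that pattern. The bases before the most upstream RefSeq start (GRCm38.p6) are given 5′ to 3′ on each gene's strand, up to the first base that GENCODE places in an exon. Capitals mark matches, on either strand, to 5 of the motifs searched, AP-1 (TGANTCA), FOX (TGTTTA), TEAD (GGAATG), the tonicity element core (TGGAAA) and the GC box (GGGCGG). The windows are chr16:29378733-29378982 for Atp13a5, chr9:123678886-123679082 for Slc6a20a, chr6:121300038-121300226 for Slc6a13 and chr6:121342324-121342573 for Slc6a12.
Atp13a5: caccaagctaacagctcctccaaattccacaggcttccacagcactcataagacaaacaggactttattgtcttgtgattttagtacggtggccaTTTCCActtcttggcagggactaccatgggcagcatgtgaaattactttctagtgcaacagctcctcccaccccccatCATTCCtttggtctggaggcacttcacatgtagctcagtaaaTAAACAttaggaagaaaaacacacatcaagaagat
Slc6a20a: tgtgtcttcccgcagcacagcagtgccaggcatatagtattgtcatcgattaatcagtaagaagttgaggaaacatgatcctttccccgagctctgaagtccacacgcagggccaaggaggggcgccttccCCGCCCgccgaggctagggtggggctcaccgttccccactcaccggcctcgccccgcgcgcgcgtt
Slc6a13: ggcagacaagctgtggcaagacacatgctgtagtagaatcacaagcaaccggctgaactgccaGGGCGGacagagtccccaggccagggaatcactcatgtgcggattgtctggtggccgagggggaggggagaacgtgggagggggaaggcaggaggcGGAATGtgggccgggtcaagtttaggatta
Slc6a12: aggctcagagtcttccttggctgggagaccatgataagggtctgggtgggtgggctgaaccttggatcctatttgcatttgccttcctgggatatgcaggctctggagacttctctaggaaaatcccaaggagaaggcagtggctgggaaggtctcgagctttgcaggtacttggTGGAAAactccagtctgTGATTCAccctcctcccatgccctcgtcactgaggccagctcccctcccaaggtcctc

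Over 250 bases upstream, the Atp13a5 promoter had a GC content of 44.8%, below the 61.2% of Slc6a20a, 60.8% of Slc6a13, 55.6% of Slc6a12 and 62.0% of Slc19a1. The tonicity element core stood 155 bases before the start of Atp13a5 and 75 bases before that of Slc6a12, and it occurs in 18.7% of 27025 promoters of this length. A TEAD match stood 77 bases before the start of Atp13a5, 91 before Slc6a13 and 157 before Slc19a1 (12.6% of promoters). Distances run from the most upstream RefSeq start. For Slc19a1 the window before that start, chr10:77032489-77032738, lies inside the gene as GENCODE places it, so its matches are not upstream of the GENCODE start. The FOX match of Atp13a5 (12% of promoters) and the AP-1 match of Slc6a12 (6.85%) each occurred in 1 of the 5 genes. GC boxes, present in 33.0% of promoters, were found upstream of Slc6a13, Slc6a20a and Slc19a1, a TATAAA motif (13.0%) upstream of 0 of the 5, and the E-box CANNTG (66.1%) upstream of 4 of the 5, the exception being Slc6a20a. These matches describe letters in the window and not bound sites.

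Atp13a5, Slc6a20a and Slc19a1 were detected in most naïve NG2-tdT+ pericytes, and Slc6a13 and Slc6a12 in few. Naïve NG2-tdT+ pericytes numbered 3243, with a median of 3821 UMIs. To compare shares of cells at 1 depth, cells were thinned to 1000 UMIs, which left out 35 of these cells. Then 84.0% (82.7 to 85.3) held an Atp13a5 UMI, 70.1% a Slc6a20a UMI, 54.0% a Slc19a1 UMI, 8.67% a Slc6a13 UMI and 0.717% a Slc6a12 UMI. In naïve oligodendrocytes of the same library (median 13252 UMIs), 0 of 99 thinned cells held Atp13a5, Slc6a13 or Slc6a12, which allows up to 3.66% by the exact interval. Without thinning the share with Atp13a5 was 97.6% in pericytes and 5.83% in oligodendrocytes. Slc6a13 was thus detected in pericytes above this background, while the share with Slc6a12 lay within the oligodendrocytes' interval.

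**Figure D1:**
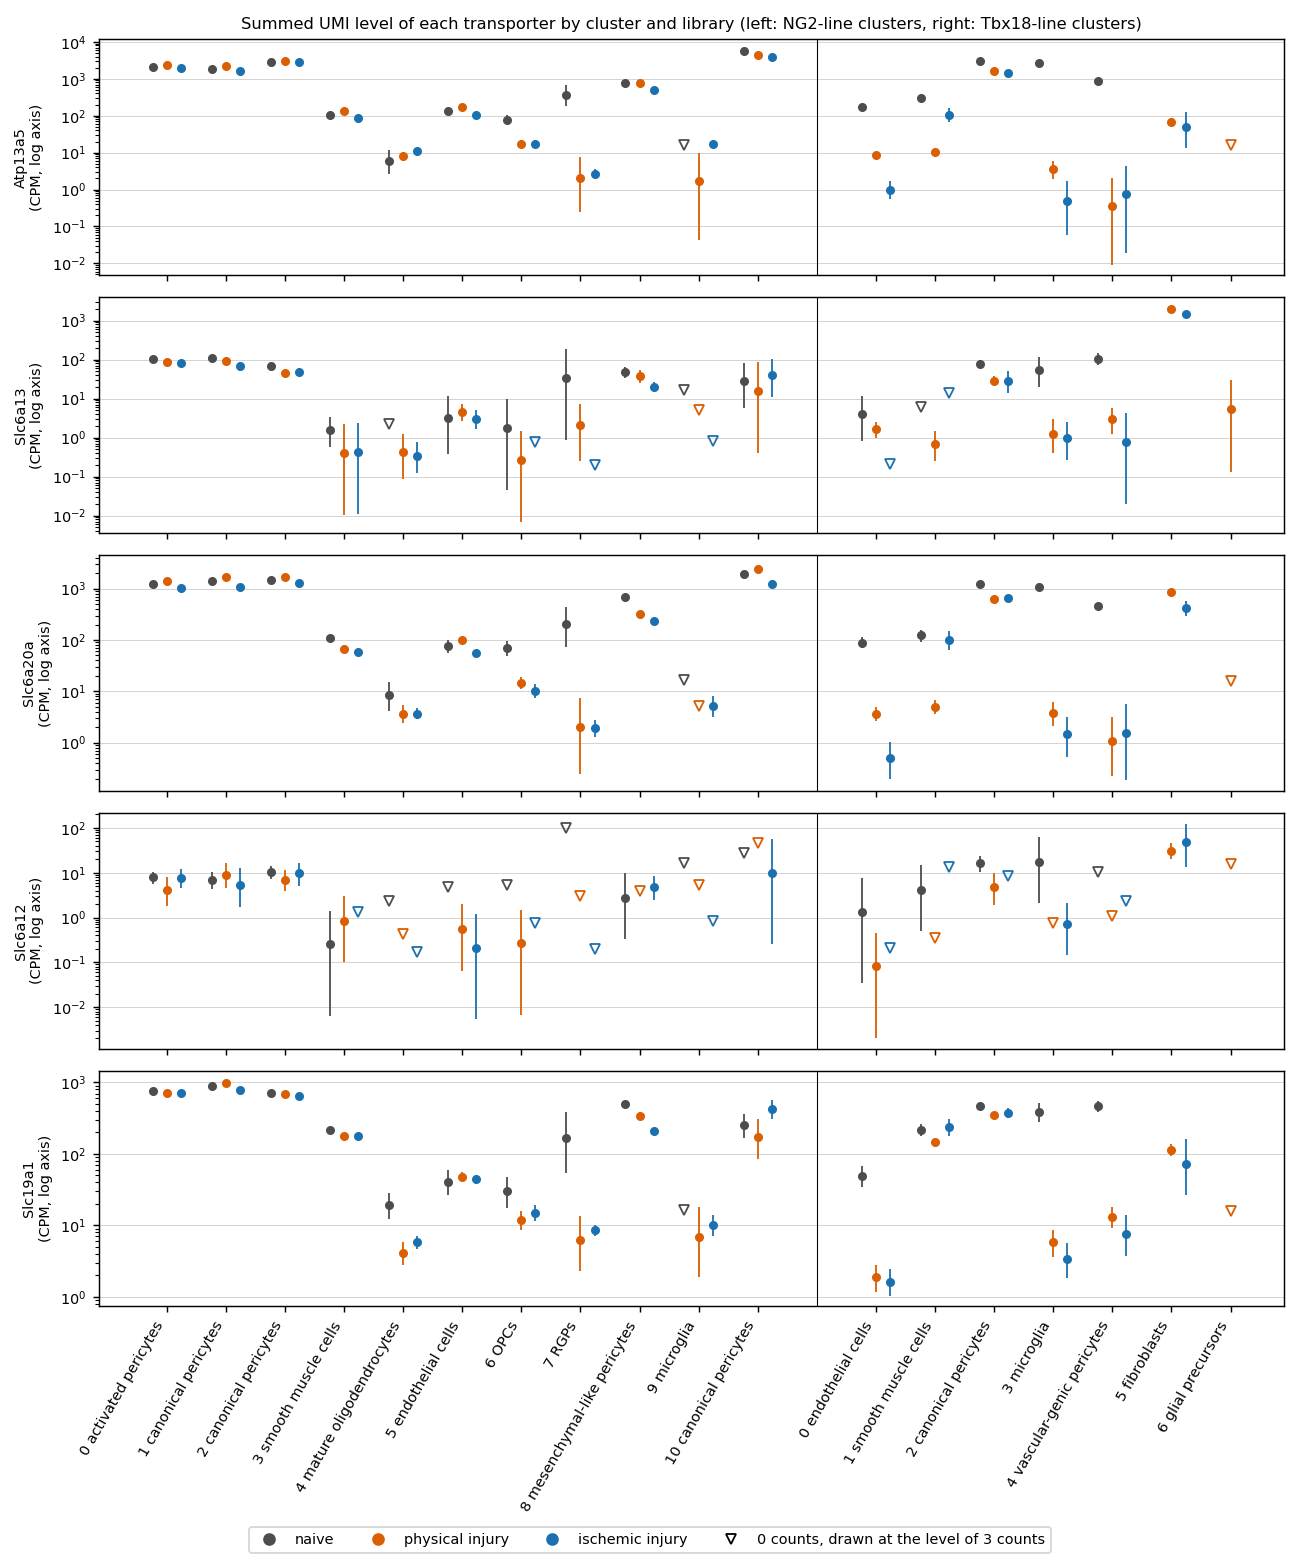
Summed UMI level of each transporter (CPM, log axis, 1 panel per gene) by cluster and condition, for groups of at least 10 cells, with 95% Poisson intervals; open triangles mark 0 counts. Atp13a5, Slc6a20a and Slc19a1 had their highest levels in pericyte clusters, and Slc6a13 in the Tbx18-line fibroblasts, at 2014 CPM after physical injury. In that library Slc6a20a was also higher in the fibroblasts than in the pericytes.

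Atp13a5 in NG2-tdT+ pericytes was 2260 CPM (2234 to 2286) when naïve, 2592 (2549 to 2635) in the physical injury library and 2120 (2078 to 2162) in the ischemic injury library. The log2 ratio to naïve was 0.20 (0.17 to 0.23) after physical and -0.09 (-0.13 to -0.06) after ischemic injury. The summed levels of the 3 libraries therefore differed by more than counting error, in opposite directions for the 2 injuries, and by much less than 2-fold. In cells thinned to 1000 UMIs, Atp13a5 averaged 2.18 UMIs in naïve, 2.60 in physical injury and 2.14 in ischemic injury pericytes. At equal depth the ischemic difference was thus close to none. Slc6a20a had the same order, with 1336 CPM (1316 to 1356) in naïve, 1583 (1550 to 1617) in physical injury and 1106 (1076 to 1137) in ischemic injury pericytes. Its log2 ratios were 0.24 (0.21 to 0.28) and -0.27 (-0.32 to -0.23). Set against each other, ischemic injury pericytes were lower than physical injury pericytes by a log2 ratio of -0.52 (-0.57 to -0.47) for Slc6a20a and -0.29 (-0.33 to -0.25) for Atp13a5.

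The folate carrier Slc19a1 stood at 777 CPM in naïve, 770 in physical injury and 706 in ischemic injury NG2-tdT+ pericytes. Its log2 ratio was -0.01 (-0.06 to 0.04) after physical injury, not distinguishable from 0 by counting error, and -0.14 (-0.20 to -0.08) after ischemic injury. Slc6a13 was lower in both injury libraries. It measured 92.9 CPM (87.7 to 98.3) in naïve pericytes, 70.4 (63.4 to 77.8) after physical injury and 69.0 (61.6 to 77.0) after ischemic injury, with log2 ratios of -0.40 (-0.57 to -0.23) and -0.43 (-0.61 to -0.25). After thinning, the ischemic ratio of Slc6a13 was nearer 0, at -0.13. Slc6a12, with 107, 34 and 36 counts in all, was at 8.36, 6.35 and 7.76 CPM, and its intervals overlapped. The summed level of the 11 pericyte markers was 37893, 36339 and 37634 CPM, so the cells compared held like amounts of pericyte marker RNA, and the smooth muscle markers summed to 1856, 1737 and 1966 CPM. After ischemic injury the oligodendrocyte markers Mag and Mobp were past 2-fold higher in these pericytes, and their part in the lower transporter levels was not tested.

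No transporter differed by 2-fold between conditions in NG2-tdT+ pericytes. Of the 4 transporters with at least 10 CPM in the higher group, 0 passed 2-fold after either injury, where 0.458% of 9168 genes did so in either direction after physical and 0.807% after ischemic injury. Between the injuries 1.11% of 9186 genes and 0 of 4 transporters passed 2-fold. The median log2 ratio of the 4 was 0.09 after physical and -0.21 after ischemic injury, where over all genes it was -0.01 and -0.02. In bulk sums of this kind, fewer cells with a transcript and less transcript per cell cannot be told apart. Thinned shares do not separate them either, since a share of cells with a UMI also depends on the mean count per cell. The thinned shares with Atp13a5 were 84.0%, 89.1% and 81.9% in naïve, physical and ischemic injury pericytes. The shares with Slc6a20a followed the same order, at 70.1%, 75.1% and 63.1%, and those with Slc19a1 were 54.0%, 53.1% and 50.7%. When clusters 8 and 10 were added, the ischemic log2 ratios were further from 0, at -0.47 for Atp13a5 and -0.69 for Slc6a20a. The mix of clusters then differed between the libraries. Cluster 8, which was low in both genes, added 177 cells to 3243 naïve pericytes and 240 cells to 1085 ischemic injury pericytes. The part of this mix in the ratios was not tested.

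The pericyte clusters of the NG2 line differed in their transporters within each library. Cluster 2 (canonical pericytes) had the most Atp13a5 of the 3 large clusters, with 2815 CPM in naïve cells against 2085 in cluster 0 (activated pericytes) and 1890 in cluster 1 (canonical pericytes). Slc6a13 had the opposite order, with 66.6 CPM in cluster 2, 101 in cluster 0 and 111 in cluster 1, and Slc19a1 was highest in cluster 1 at 901 CPM. In each of these clusters Atp13a5 and Slc6a20a were higher after physical injury than in naïve cells, with log2 ratios of 0.08 to 0.21 for Atp13a5 and 0.21 to 0.25 for Slc6a20a. After ischemic injury Slc6a20a was lower in all 3 clusters, at -0.26, -0.35 and -0.19, and Atp13a5 was lower beyond its interval in clusters 0 and 1, at -0.10 and -0.22, but not in cluster 2, at -0.02 (-0.07 to 0.03).

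The small NG2-line cluster 10, also canonical pericytes, had the highest Atp13a5 of the NG2-line clusters, at 5507 CPM in 44 naïve cells, 4330 in 23 physical injury cells and 3920 in 43 ischemic injury cells. Its cells were shallow, with medians of 1929, 2554 and 2061 UMIs, and Vtn, the vitronectin gene that marks brain pericytes, was low there, at 3709, 2608 and 7037 CPM, as was Slc19a1, at 252, 171 and 421 CPM. Cluster 8 (mesenchymal-like pericytes) had the lowest Atp13a5 and Slc6a20a of the pericyte clusters. Its Slc6a20a level was 682 CPM (623 to 744) in 177 naïve cells, 325 (286 to 368) in 81 physical injury cells and 237 (218 to 257) in 240 ischemic injury cells, and the log2 ratios to naïve were -1.07 (-1.29 to -0.85) and -1.53 (-1.70 to -1.35). Slc19a1 there was 494, 337 and 211 CPM, and Atp13a5 763, 764 and 489 CPM. Beside these, Vtn in cluster 8 was 12251, 14978 and 12642 CPM, the fibroblast markers summed to 362, 592 and 586 CPM, and the smooth muscle markers to 2527, 5673 and 3345 CPM. Their part in the lower transporter levels was not tested.

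**Figure D2:**
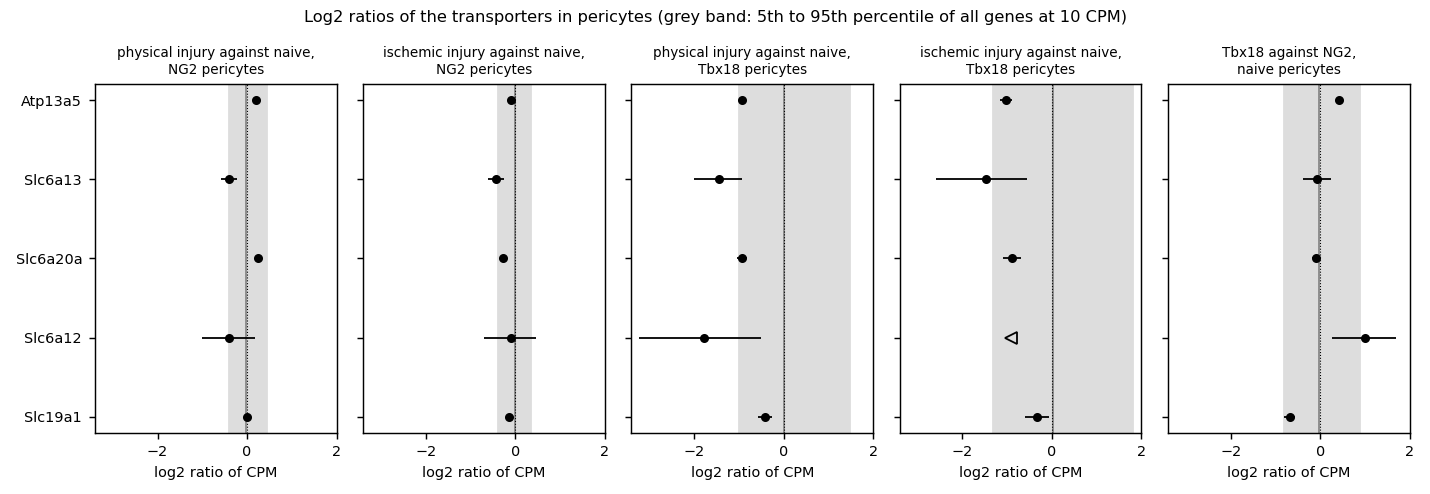
Log2 ratio of CPM for each transporter in 5 comparisons of pericytes, with 95% intervals for counting error; the grey band spans the 5th to 95th percentile of all genes with at least 10 CPM, the grey line is their median, and the open triangle is an upper bound for Slc6a12 at 0 counts. Ratios lay within 0.43 of 0 in the NG2 line and reached -1.78 in the Tbx18 line.

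Tbx18-tdT+ pericytes had lower levels of all 5 transporters in both injury libraries than in the naïve library. There were 226 naïve, 433 physical injury and 86 ischemic injury cells in Tbx18-line cluster 2, with medians of 6547.5, 2540 and 3791.5 UMIs. Atp13a5 was 3015 CPM (2927 to 3104) in naïve cells, 1588 (1525 to 1654) after physical injury and 1476 (1352 to 1608) after ischemic injury. Slc6a20a was 1220 (1164 to 1277), 643 (602 to 685) and 656 (574 to 746) CPM in the same order. For both genes the naïve interval lay far above the 2 injury intervals, which overlapped. The log2 ratios to naïve were -0.92 (-0.997 to -0.85) and -1.03 (-1.16 to -0.90) for Atp13a5 and -0.92 (-1.04 to -0.81) and -0.90 (-1.10 to -0.70) for Slc6a20a.

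The GABA transporters were lower by more, on few counts. Slc6a13 was 79.3 CPM (65.7 to 95.03) in naïve Tbx18-tdT+ pericytes, 29.0 (20.96 to 39.0) after physical injury and 28.4 (13.6 to 52.2) after ischemic injury, and its log2 ratios were -1.45 (-1.99 to -0.94) and -1.48 (-2.58 to -0.55). Slc6a12 had 24 counts in naïve cells (16.1 CPM), 7 after physical injury (4.72 CPM, log2 ratio -1.78, -3.23 to -0.52) and 0 after ischemic injury. There a floor of 3 counts gave a bound of 1.90-fold lower, which leaves out the counting error of the naïve count. The folate carrier Slc19a1 differed least, with 471, 354 and 375 CPM and log2 ratios of -0.41 (-0.58 to -0.25) and -0.33 (-0.61 to -0.06).

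Of the 5 transporters, 2 passed 2-fold after physical injury (Slc6a13 and Slc6a12), where 13.5% of 9890 genes did so in either direction, and 3 after ischemic injury (Atp13a5, Slc6a13 and Slc6a12), where 19.5% of 10003 genes did. Slc6a12, at 0 counts after ischemic injury, is counted there through the 1 CPM added before taking logs, and its bound of 1.90-fold lies under 2-fold. Atp13a5 was close to the threshold, and its ischemic ratio was -0.60 when cells were thinned to 1000 UMIs, -0.58 with cells weighted equally and -0.70 without cells holding 3 markers of other types. The background in this line is thus far above that of the NG2 line, and the cells were fewer. The median log2 ratio of the 5 transporters was -0.92 and -1.03, and over all genes it was 0.00 and 0.03. Between ischemic and physical injury, 12.4% of 10001 genes and 0 of 4 transporters passed 2-fold, and the log2 ratios were -0.11 (-0.25 to 0.03) for Atp13a5, 0.03 for Slc6a20a, -0.03 for Slc6a13 and 0.08 for Slc19a1, all with intervals that held 0. After thinning, the ratio of Slc19a1 was -0.54 after physical and 0.10 after ischemic injury. Thinned Slc6a12 was left with 1, 3 and 0 counts in the naïve, physical and ischemic injury libraries, which gives no direction. With cluster 4 (vascular-genic pericytes) added, in which naïve and injured cells differed in pericyte markers, the ratios of Atp13a5 were -2.25 and -3.08.

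Other markers moved with these transporters in the Tbx18-tdT+ pericytes. Vtn was 12420, 7714 and 8131 CPM in naïve, physical and ischemic injury cells, and the 11 pericyte markers summed to 30402, 19614 and 18971 CPM, with all 11 detected in each library. The 6 smooth muscle markers summed to 1584, 5576 and 2594 CPM, with 4 of 5 past 2-fold higher after physical injury, and the 7 endothelial markers to 438, 963 and 1362 CPM, with 6 and 5 of 7 past 2-fold higher after the 2 injuries. Counted per 100 Vtn UMIs, Atp13a5 was 24.3 in naïve, 20.6 in physical injury and 18.1 in ischemic injury cells, and Slc6a20a was 9.82, 8.33 and 8.06. The part of the other cell types' RNA in the lower transporter levels was not tested.

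Per cell, the injured Tbx18-tdT+ pericytes were a mixture of cells with and without Atp13a5. After thinning to 1000 UMIs, which left out 3, 81 and 11 cells, an Atp13a5 UMI was found in 91.0% (86.5 to 94.4) of 223 naïve cells, 43.2% (37.9 to 48.5) of 352 cells with physical injury and 44.0% (32.5 to 55.9) of 75 ischemic injury cells. Without thinning the shares were 97.8%, 47.1% and 59.3%. In Tbx18-line cluster 0 after physical injury (named endothelial cells in the study, although 4 of its 10 leading genes were haemoglobin genes, median 6701.5 UMIs) the thinned share was 0.634%. The cells that held Atp13a5 held as much of it after injury as before or more, at 3074, 4309 and 4182 CPM. This count is by construction above 0 in each of these cells. The Fano factor of Atp13a5 (variance over mean per 1000 UMIs) was 1.60 in naïve cells, 5.20 after physical and 4.98 after ischemic injury, against 1.37, 1.29 and 1.52 in NG2-tdT+ pericytes.

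**Figure D3:**
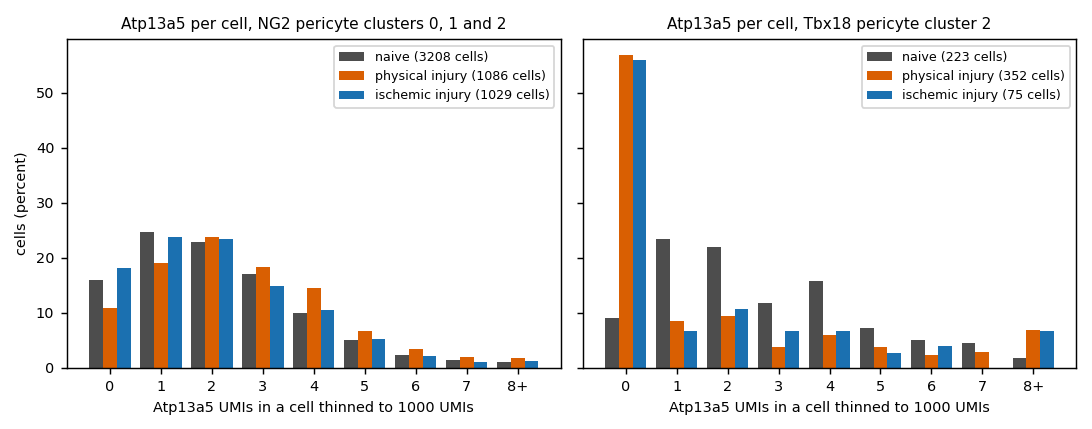
Percent of pericytes (y axis) by Atp13a5 UMIs in a cell thinned to 1000 UMIs (x axis), in the NG2 line at left and the Tbx18 line at right, with bars for the 3 conditions and cell numbers in the key. In the Tbx18 line 56.8% (physical) and 56.0% (ischemic injury) of cells had 0 UMIs, against 8.97% of naïve cells.

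In cells with an Atp13a5 UMI, the other abundant transporters and Vtn were near or above the naïve level. Among them Slc6a20a was 1257 CPM in 203 naïve, 1271 in 152 physical injury and 1392 in 33 ischemic injury cells, Slc19a1 was 473, 575 and 607 CPM, and Vtn 12443, 12525 and 13860 CPM. The cells without it were different after injury. In 20 naïve, 200 physical injury and 42 ischemic injury cells without an Atp13a5 UMI, Slc6a20a was 705, 231 and 252 CPM, Vtn 12331, 4608 and 5222 CPM, the pericyte markers 33687, 14560 and 14283 CPM, and the smooth muscle markers 2445, 7318 and 3237 CPM. In the NG2 line, cells with and without an Atp13a5 UMI were alike in Vtn, at 18969 and 20000 CPM in the naïve library, and in Slc6a20a, at 1357 and 1214 CPM.

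Detection of the 3 abundant transporters was linked across cells in the injured Tbx18 libraries. All of Atp13a5, Slc6a20a and Slc19a1 were found in 11.1% of thinned physical injury cells, where the product of their separate shares was 4.39%, and none of them in 38.4%, where the product of the absence shares was 25.8%. In ischemic injury cells the share with all of them was 14.7% (product 7.27%) and the share with none 26.7% (product 19.7%). In naïve cells the figures were 22.9% (21.6%) and 3.14% (2.09%). In the NG2 line all of them were found in 32.2% (31.8%) of the naïve pericytes, 35.5% (35.5%) after physical injury and 26.7% (26.2%) after ischemic injury. The NG2-line share with none was 2.12% (2.19%) in naïve and 1.10% (1.27%) in physical injury pericytes, and with ischemic injury, at 4.37%, it was above its product of 3.29%.

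Leaving out cells with UMIs of at least 3 smooth muscle markers, a choice made after seeing these values, reduced the differences in the Tbx18 line but kept their direction. In the remaining 183 naïve, 258 physical injury and 71 ischemic injury cells, Atp13a5 was 3098, 2325 and 1872 CPM, and its log2 ratios were -0.41 and -0.73. Those of Slc6a20a became -0.42 and -0.63. In the cells left out (43, 175 and 15), Atp13a5 was 2663, 776 and 303 CPM.

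Naïve Tbx18-tdT+ and NG2-tdT+ pericytes were compared in the joint clustering of both naïve libraries, over 244 and 2704 cells (median 5875.5 and 4046.5 UMIs) of clusters 0, 2, 3, 5, 8 and 9, in which the pericyte markers had the highest relative level of all marker lists. Clusters 1 and 7 also had this but were kept out of the group, since haemoglobin genes led cluster 1 and the radial glia marker Slc1a3 stood among the leading genes of cluster 7. Atp13a5 was higher in Tbx18-tdT+ pericytes, at 2918 CPM (2830 to 3008) against 2173 (2145 to 2200), a log2 ratio of 0.43 (0.38 to 0.47). Slc19a1 was lower, at 440 CPM (407 to 476) against 708 (693 to 724), a log2 ratio of -0.69 (-0.80 to -0.57). Slc6a20a was nearly equal, at 1151 against 1235 CPM (-0.10, -0.18 to -0.03), and Slc6a13 was not distinguishable, at 66.4 against 69.8 CPM (-0.07, -0.39 to 0.24). Slc6a12 was higher on 22 counts, at 15.4 against 7.70 CPM (1.00, 0.25 to 1.69). The group also held 109 NG2-tdT+ and 13 Tbx18-tdT+ cells that the line clusterings placed with smooth muscle cells, and the smooth muscle markers summed to 2311 and 1970 CPM. When the pericyte clusters of the line clusterings were taken instead, the 5 ratios moved by less than counting error, to 0.42 for Atp13a5 and -0.72 for Slc19a1. Of the 5 transporters 0 passed 2-fold, where 5.78% of 9487 genes did so in either direction.

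The difference held within clusters for 2 genes. Atp13a5 was higher in the Tbx18 library in each of clusters 0, 2, 3, 5, 7 and 8, with log2 ratios of 0.20 to 0.59, and Slc19a1 was lower in each, with ratios of -1.12 to -0.38. Cluster 1, led by haemoglobin genes, had the same directions in 36 Tbx18-tdT+ and 639 NG2-tdT+ cells, with 2274 against 1884 CPM of Atp13a5 (0.27, 0.11 to 0.43) and 729 against 951 CPM of Slc19a1 (-0.38, -0.68 to -0.10). Vtn was also lower in the Tbx18 library in the pericyte clusters, at 11375 against 17284 CPM, the pericyte markers summed to 28636 against 35542 CPM, and 5 of 5 oligodendrocyte markers were past 2-fold lower. Slc6a13 varied most between clusters. It was highest in cluster 7, at 588 CPM in 27 Tbx18-tdT+ and 254 CPM in 244 NG2-tdT+ cells, where 29.6% and 51.6% of cells held a UMI. Of the 66 Slc6a13 counts in these Tbx18-tdT+ cells, 53 came from 3 cells that the Tbx18-line clustering placed with the fibroblasts, and the 8 cells it placed with the canonical pericytes had 12 counts, at 230 CPM. The lowest level was in cluster 5, at 21.01 CPM (6 counts) and 4.31 CPM (6 counts). Cluster 9, with 149 NG2-tdT+ and 7 Tbx18-tdT+ cells, was low in Atp13a5, at 422 CPM in the NG2 library.

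**Figure D4:**
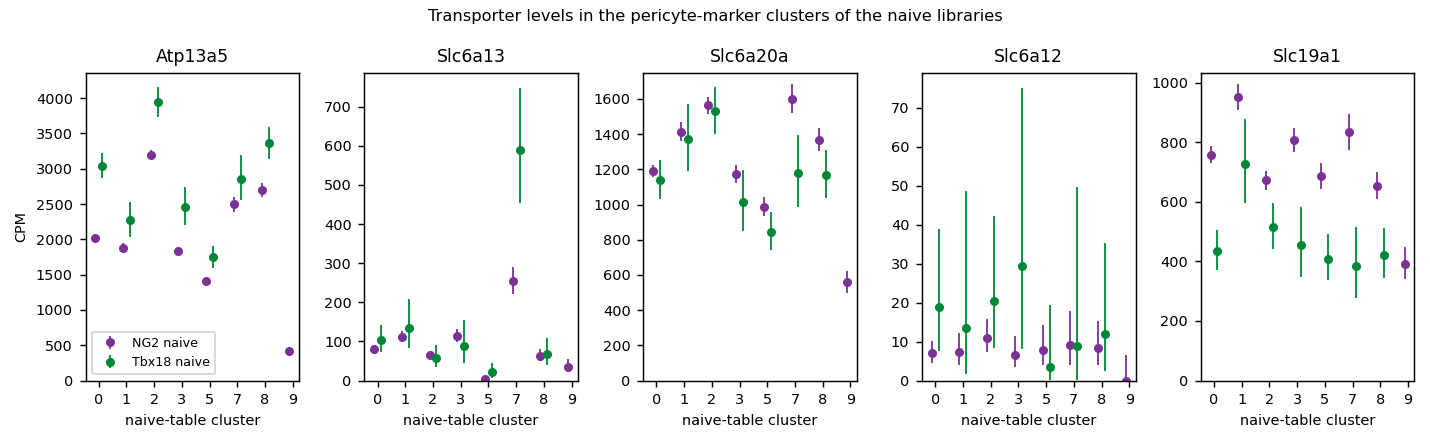
Level of each transporter (CPM, linear axes from 0) in the clusters of the naïve libraries in which pericyte markers were highest, for the NG2 (purple) and Tbx18 (green) libraries and groups of at least 20 cells, with 95% Poisson intervals. Atp13a5 lay higher and Slc19a1 lower in the Tbx18 library in clusters 0, 2, 3, 5, 7 and 8, and Slc6a13 reached 588 CPM in cluster 7, where 53 of 66 counts came from 3 cells.

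Outside pericytes, Slc6a13 had its highest level in the fibroblasts of the Tbx18 line (cluster 5). It was 1859 CPM in 5 naïve cells, 2014 (1921 to 2111) in 116 physical injury cells and 1492 (1239 to 1781) in 10 ischemic injury cells, and after physical injury 94.8% of these fibroblasts held a UMI (77.0% when thinned to 1000 UMIs). The level after physical injury was far above the 29.0 CPM of pericytes in the same library. Per 100 Vtn UMIs it was 65.3 in fibroblasts against 0.375 in pericytes, 174-fold more (128 to 242), and after ischemic injury 130-fold more (67.0 to 280). Slc6a20a was 864 CPM in physical injury fibroblasts, above the 643 CPM of pericytes in that library. Per Vtn UMI it was 3.36-fold (3.02 to 3.74) the pericyte ratio, and Slc6a12 was 31.1 CPM on 27 counts. Atp13a5 was low, at 69.2 CPM and 0.109-fold (0.083 to 0.141) the pericyte ratio. The fibroblast markers summed to 9977 CPM in these cells, with all 6 detected.

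NG2-tdT+ pericytes with a Slc6a13 UMI had more of both the fibroblast and the pericyte markers than those without one in each library. Their fibroblast markers were far under the level in fibroblasts. Among naïve NG2-tdT+ pericytes, 278 cells with a Slc6a13 UMI after thinning had 264 CPM of the fibroblast markers and 22043 CPM of Vtn, where 2930 cells without one had 224 and 18865 CPM. The fibroblast markers were 318 CPM in 72 cells with it and 204 CPM in 1014 cells without it after physical injury, and 270 CPM in 84 against 207 CPM in 945 cells after ischemic injury. The pericyte markers summed to 39948 against 37701 CPM in naïve, 37619 against 36251 in physical and 39195 against 37515 in ischemic injury cells. Vtn was 20467 against 18421 CPM after physical and 19848 against 17660 CPM after ischemic injury. The smooth muscle markers were lower in cells with Slc6a13 in each library.

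Slc19a1 was the one transporter of the 4 with ample counts that was richer relative to Vtn in smooth muscle cells than in pericytes. Its level in smooth muscle was 215, 177 and 176 CPM in naïve, physical and ischemic injury cells of the NG2 line (cluster 3), and 216, 145 and 238 CPM in the Tbx18 line (cluster 1). Per Vtn UMI this was 3.10-fold (2.87 to 3.34), 3.58-fold (3.21 to 3.99) and 3.18-fold (2.84 to 3.55) the pericyte ratio in the NG2 line, and 3.39-fold, 10.9-fold (9.73 to 12.2) and 3.47-fold in the Tbx18 line. Atp13a5 went the other way, at 0.504, 0.787 and 0.524 times the pericyte ratio in NG2-line and 0.739, 0.172 and 0.390 times in Tbx18-line smooth muscle, where it was 10.3 CPM after physical injury. Slc6a20a was at 0.904, 0.671 and 0.681 times in the NG2 line and 0.741, 0.205 and 0.840 times in the Tbx18 line. With all cells thinned to 1000 UMIs, a choice made after seeing these values, Slc19a1 stayed above the pericyte ratio in all 6 libraries, at 2.03 to 10.3 times, and Atp13a5 below it, at 0.188 to 0.857 times, with an interval that held 1 in naïve Tbx18-tdT+ cells. Slc6a20a was then 1.21 times (0.704 to 1.94) in naïve and 1.31 times (0.498 to 2.92) in ischemic injury Tbx18-line smooth muscle. In NG2-line smooth muscle it was 0.879 times (0.688 to 1.11) in naïve and 1.03 times (0.681 to 1.496) in ischemic injury cells. All of these intervals held 1, so its lower ratio there did not hold. After physical injury it stayed below the pericyte ratio, at 0.604 times in the NG2 line and 0.356 times in the Tbx18 line.

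In NG2-line endothelial cells (cluster 5) Atp13a5 was 132, 176 and 106 CPM, Slc6a20a 76.8, 99.4 and 55.7 CPM and Vtn 1593, 1342 and 1144 CPM. Their ratio to Vtn was 0.700, 0.940 and 0.781 times that of pericytes for Atp13a5 and 0.691, 0.867 and 0.784 times for Slc6a20a. The physical injury value of Atp13a5 was close to the pericyte ratio, and these ratios were not repeated in thinned cells. In Tbx18-line cluster 0, the endothelial cells led by haemoglobin genes, Atp13a5 stood at 177 CPM in naïve cells, at 8.69 CPM in the physical injury library and at 0.994 CPM in the ischemic injury library. In the microglia of the injured Tbx18 libraries, where the myeloid markers summed to 21949 and 18568 CPM, Atp13a5 was 3.51 and 0.484 CPM. The naïve cells that share this cluster number held 2662 CPM of it.

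**Figure D5:**
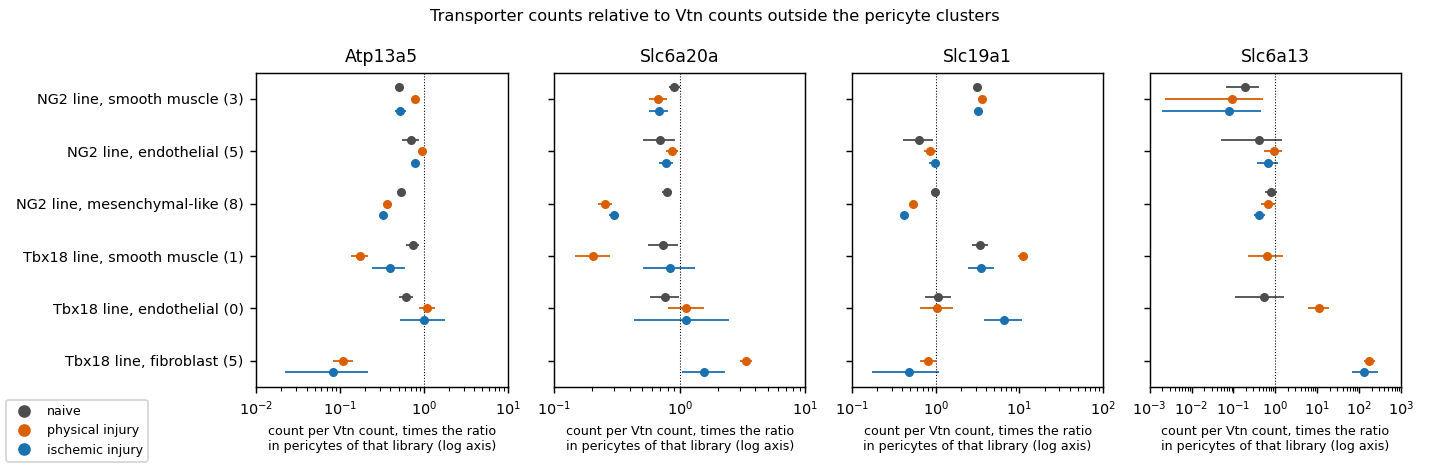
Count of 4 transporters per Vtn count in 6 clusters outside the main pericyte clusters, as a multiple of the ratio in pericytes of the same library (log axes, dotted line at 1), with 95% intervals for counting error and the conditions in colour. Slc6a13 in fibroblasts lay at 174 and 130 times, and Slc19a1 in smooth muscle at 3.10 to 10.9 times, the pericyte ratio.

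The genes most like each transporter were ranked by Pearson's r of log2(CPM + 1) over 42 sums of a cluster and a library with at least 50 cells, among 8858 genes that reached 50 CPM. The sums share libraries and depth, and r is a description across them. Among the genes closest to Atp13a5 were Slc6a20a, Slc30a10, Abcc9 and Vtn (all 0.97), and Slc6a20a was closest to Slc30a10 (0.99), Atp13a5 (0.97), Sod3 (0.97), Vtn (0.97) and Slc16a12 (0.97). Slc19a1 was closest to Pdgfrb (0.98), Vstm4, Pcdh18, Heyl and C1qtnf2 (all 0.97 or 0.98), where Pdgfrb is the growth factor receptor shared by pericytes and smooth muscle. Slc6a13 had other neighbours, Gm30624 (0.96), Igf2 (0.92), Scube1 (0.91), Syt12 (0.90) and Dcdc2a (0.90). Slc6a12 was closest to Dcdc2a (0.85), Shld2, Frs2, Zfp362 and Gabpb2 (all 0.82), on sums with few or 0 counts of it, and its r with the adjacent Slc6a13 was 0.79.

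Related genes were read from lists of the same families and pathways, counting genes with at least 10 CPM in the higher group. In NG2-tdT+ pericytes 0 genes of the SLC6, ATP13A and SLC19 families, of folate, amino acid, polyamine and tonicity pathways or of endothelial transporters passed 2-fold after physical injury. After ischemic injury 1 did, the amino acid carrier Slc38a2 of the tonicity list, at 54.3 against 23.6 CPM (log2 ratio 1.20, 0.96 to 1.45). Neither SLC19 relative, Slc19a2 or Slc19a3, reached 10 CPM. The ATP13A relatives were steady, with Atp13a3 at 54.1, 47.2 and 47.6 CPM in naïve, physical and ischemic injury NG2-tdT+ pericytes and 0 of the family past 2-fold in either line.

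In Tbx18-tdT+ pericytes, where 13.5% and 19.5% of all genes passed 2-fold, the lists moved more. After physical injury 9 of 11 endothelial transporters were past 2-fold higher, among them Slco1c1 (58.6 against 1.34 CPM) and Abcb1a (74.8 against 2.69 CPM), and after ischemic injury 7 of 10, beside the higher endothelial markers given above. The taurine transporter Slc6a6 was higher after both, at 121 and 62.4 against 11.4 CPM in naïve cells, as was Slc38a2, at 141 and 153 against 39.0 CPM, so the tonicity list had 2 and 3 of 6 past 2-fold higher. Of the folate list, Mthfd2 was past 2-fold higher and Fpgs lower after physical injury, and 0 of 7 higher and 2 lower (Mthfd1 and Shmt2) after ischemic injury, on 25 counts or fewer per gene and library. The creatine transporter Slc6a8 was past 2-fold lower after ischemic injury, at 5.68 against 25.6 CPM, but on 2 counts against 38 (log2 ratio -2.17, -5.27 to -0.22). Of the polyamine list, Amd1 was past 2-fold higher after ischemic injury, at 42.6 against 18.8 CPM, on 15 counts against 28. The GABA, betaine, proline and taurine metabolism list had 0 past 2-fold after either injury. Between the naïve lines, Slc6a6 (18.2 against 6.99 CPM) and Slc6a20b, the close copy of Slc6a20a (11.9 against 3.90 CPM), were higher in Tbx18-tdT+ pericytes, as were Azin1 and Mtr, and Aldh5a1 was lower.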

How the data were processed

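Each deposited table holds raw UMI counts, with genes against cells. The authors made them with Cell Ranger on mm10 (7.0.0 in the submitters' processing notes, a range of versions up to 7.0.0 in the paper). The paper does not give the version for each library, and its part in differences between libraries was not tested. They kept cells in Seurat with at least 200 genes, at most 12 percent mitochondrial transcripts and totals within 2 SD. The deposited percent of mitochondrial transcripts was computed by the authors and used here only to apply that filter again. Whether reads were counted by strand is not given in the sources used here. Cluster numbers were the authors' own, and the cluster names of the 2 line clusterings were taken from the study. Doublet removal is not stated, and none was done here. One alternative leaves out cells with at least 3 markers of other types, which 2022 of 4306 naïve NG2 cells held. Pericytes held some of these markers, such as Emcn (319 CPM) and Flt1 (140 CPM) in naïve NG2-tdT+ pericytes. This alternative therefore does not single out doublets.

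Counts were summed per cluster and library in Python 3.11.15 (numpy 2.4.6, scipy 1.17.1) and given as CPM with 95% Poisson intervals, shares of cells with Clopper-Pearson intervals, and ratios of counts with conditional binomial intervals. The 2-fold share used log2(CPM + 1) and at least 10 CPM in the higher group. With 1 library per group no test was run. TMM factors came from edgeR 4.0.16 and were used only as scaling in an alternative. The calculations were tested on simulated data. The 5 transporters, the gene lists and the markers were chosen with earlier results of these data known. All 5 transporters are named, with the 5 genes most like each, and up to 3 genes of each list with the largest ratios. Other genes of a list past 2-fold are named where 5 or fewer were counted, chosen after their values were seen. Some genes that these rules select are not reported here. Gene positions came from GENCODE M21 and upstream bases from RefSeq (GRCm38.p6), with all 5 symbols matched.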

Additional observations from a re-analysis of the deposited data

Results flagged for a closer look

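Atp13a5 in pericytes after physical injury was higher than naïve in the NG2 line (log2 ratio 0.20) and lower in the Tbx18 line (-0.92), a difference of 1.12 between the lines. Slc6a20a did the same (0.24 and -0.92), a difference of 1.17. With 1 library per group, the difference between the lines was not tested. In the alternatives run, both genes stayed higher in the NG2 line and lower in the Tbx18 line after physical injury, and the smallest Tbx18 difference was that without cells holding 3 smooth muscle markers (-0.41 and -0.42). The cells compared were 3243 and 1106 in the NG2 line and 226 and 433 in the Tbx18 line.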

How the results depend on the processing

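No paired analysis was possible because each group is 1 library and the labels give no replicate numbers, and for the same reason leaving out a library gives no value. Of 215 alternatives for the transporters' log2 ratios, 160 moved by less than counting error, 53 moved further and 2 were counted as reversed in sign. A ratio was counted as reversed only where its main interval excluded equal levels. Some ratios whose main interval held equal levels also changed sign, such as Slc6a12 after ischemic injury in the NG2 line. The cause of each shift was not tested, and depth limits Slc6a12 throughout.

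In the NG2 line after physical injury, Atp13a5 was 0.26 and Slc6a12 -1.02 when thinned to 1000 UMIs, Atp13a5 was 0.25 without cells holding 3 markers of other types and 0.16 as the mean within clusters, and Atp13a5, Slc6a20a and Slc19a1 were 0.11, 0.14 and -0.091 with clusters 8 and 10 added. After ischemic injury, Atp13a5, Slc6a13 and Slc6a12 were -0.024, -0.13 and -0.94 when thinned, Atp13a5 and Slc6a12 were -0.13 and 0.87 without cells holding other markers, and Atp13a5, Slc6a13, Slc6a20a and Slc19a1 were -0.47, -0.79, -0.69 and -0.51 with clusters 8 and 10.

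In the Tbx18 line with cluster 4 added, Atp13a5, Slc6a13, Slc6a20a and Slc19a1 were -2.25, -2.79, -2.27 and -1.82 after physical and -3.08, -3.66, -2.96 and -2.45 after ischemic injury. Thinned, Atp13a5 was -0.59 and -0.60, and 2 ratios reversed, Slc19a1 to 0.10 after ischemic injury and Slc6a12 to 0.93 after physical injury, on 3 counts against 1. Slc6a12 after ischemic injury has 0 counts, so its values are bounds at a floor of 3 counts that leave out the counting error of the naïve count. The thinned bound of 3.16 gives no direction. Without cells holding 3 markers of other types, Atp13a5 and Slc6a20a were -0.77 and -0.77 after physical injury, and -0.70 and -0.64, with a bound of -0.11 for Slc6a12, after ischemic injury. With cells weighted equally, Atp13a5 was -0.83 and -0.58, and Slc6a20a -0.52 after ischemic injury, and with the stated filters applied again Atp13a5 was -0.83 after physical injury. Of the alternatives chosen after seeing the data, leaving out cells with 3 smooth muscle markers gave -0.41, -0.84, -0.42 and -0.19 for Atp13a5, Slc6a13, Slc6a20a and Slc19a1 after physical injury, and -0.73 and -0.63 for Atp13a5 and Slc6a20a, with a bound of -0.47 for Slc6a12, after ischemic injury. Keeping cells with at least 5 Vtn UMIs gave -0.76, -0.71 and -0.19 for Atp13a5, Slc6a20a and Slc19a1 after physical injury.

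Between the naïve lines, Atp13a5 was 0.35 with TMM factors, 0.29 thinned and 0.51 without cells holding other markers. Slc6a20a was -0.18 both with TMM factors and thinned, and Slc6a13 was -0.63 thinned and 0.30 with clusters 1 and 7 added, also chosen after seeing the data, where 53 Slc6a13 counts of the Tbx18 library came from 3 cells. Per Vtn against pericytes, Slc6a20a in smooth muscle reversed when thinned, to 1.21 in naïve Tbx18 and 1.03 in ischemic injury NG2 cells, and both intervals held 1. In ischemic injury Tbx18 cells its thinned ratio was also above 1, at 1.31 (0.498 to 2.92).

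With 50 CPM in the higher group, 25 and 16 genes passed 2-fold after physical and ischemic injury in the NG2 line, 448 and 557 in the Tbx18 line and 121 between the lines. With no filter these were 196, 399, 3651, 4964 and 2037, and with a pseudocount of 5 CPM 43 in the NG2 line after ischemic injury and 274 between the lines.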
